A study of Drosophila melanogaster with 8 samples.

Results

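The genes described here encode the initiation and elongation factors of cytosolic translation in Drosophila melanogaster, chosen by name: every gene whose current FlyBase symbol begins with eIF or eEF and a digit. The name table held 51 such genes, and 50 of the 14701 gene IDs in the authors' deposited table were among them. eEF5 was not analysed here, because its current gene ID is not on a row of the table used. The study compared adult mated females of 2 wild-type laboratory strains, Dahomey and Oregon R, aged to 10 days at 25 °C, with no treatment or transgene in either. RNA came from heads and thoraxes together, pooled from 60 flies a library, with 4 libraries per strain and polyadenylated RNA sequenced. The data are the authors' finished comparison, with 1 mean normalized read count over the libraries, 1 log2 fold change, its standard error (SE) and an adjusted p per gene. Values of single libraries were not used here, so no spread between libraries can be shown and the depth of each is unknown; the submitters state 90000000 reads per sample. The sign is not stated in the headers; the table is named for Dahomey versus Oregon R, so a value above 0 was taken to mean more RNA in Dahomey.

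Translation of a capped mRNA starts when the eIF4 factors (the cap-binding protein eIF4E, the scaffold eIF4G and the RNA helicase eIF4A) bring it to a small ribosomal subunit loaded with eIF3, eIF1, eIF1A and eIF5. The initiator tRNA arrives on eIF2, a GTP-binding trimer that the exchange factor eIF2B recharges; stress kinases that phosphorylate the alpha subunit of eIF2 turn it into an inhibitor of eIF2B. After the subunits join, with the help of eIF5B, eEF1 delivers each aminoacyl-tRNA and eEF2 moves the ribosome along by a codon at a time.

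The strains differed in 16 of the 49 factor genes with a p-value, by modest amounts and in both directions. Of these, 9 were higher in Dahomey and 7 lower, and 33 did not pass the threshold of an adjusted p under 0.05 in the authors' DESeq2 test. The 16 are 32.7% of the members, beside 29.6% called over all 13185 gene IDs with a p-value, of which 14.8% were higher and 14.8% lower in Dahomey. The share of factor genes called was thus close to that of the whole table and says nothing particular to them. Among the 41 members with a mean of at least 100, 9 were higher and 5 lower, or 34.1%, beside 37.0% of all gene IDs with such a mean (18.3% higher and 18.7% lower). The median log2 fold change of the members was 0.07, beside -0.01 over all gene IDs with a p-value. The 16 members that passed had a median absolute difference of 0.25 on the log2 scale, against 0.41 for every gene that passed. Of the 16, 4 differed by at least 1.5-fold, beside 34.3% of every gene that passed. Among these 4, eIF4E3 and eIF4E7 had means under 10.

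Abundance differed far more between factors than between strains. Levels were compared as the mean normalized count per kb of exon, taken over both strains, with exon lengths from an annotation of the BDGP6 assembly. eEF1alpha1 stood highest, at 261819 per kb, which is rank 24 of 14367 genes with a known length. eEF2 followed at 119612, then the helicase gene eIF4A at 68795 and eEF1gamma at 66411 per kb. These 4 genes were higher in Dahomey, and the next in order, eEF1beta at 46638 per kb, was lower. Together the members took 1.70% of the summed means of the table, and the 6 elongation factors alone took 1.10%. At the low end, 8 members with a p-value had means between 2.86 and 62.9 counts: eIF3d2, eIF3f2, eIF3g2, eIF4E3, eIF4E4, eIF4E5, eIF4E7 and eIF4H2. eIF4B, which assists the eIF4A helicase, is listed at 0 in the authors' deposited table and has no fold change. RpL15, a ribosomal protein gene that every cell uses, is listed at 0 there too, so the 0 of eIF4B cannot be read as a low level.

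**Figure D1:**
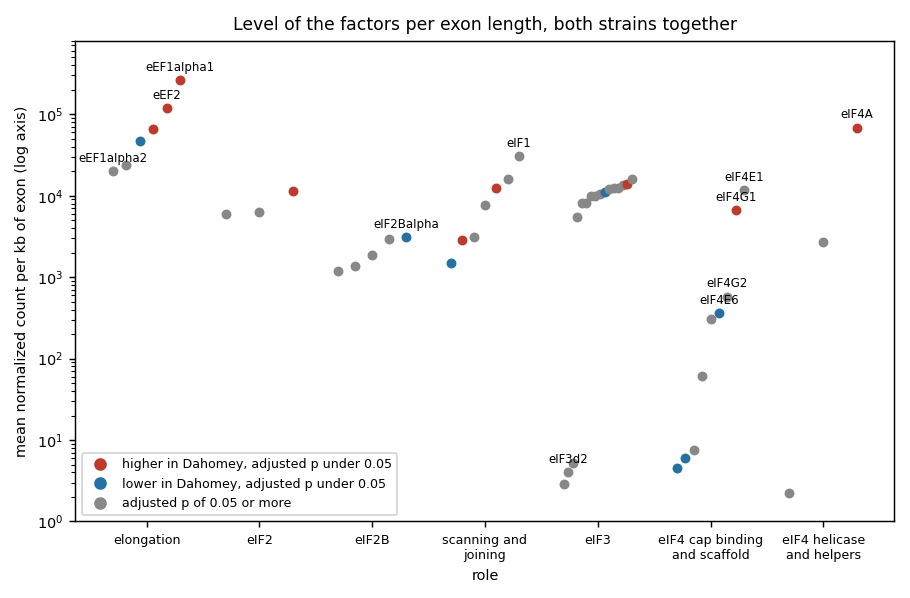
Each point is 1 factor gene, placed by role on the x axis and by its mean normalized count per kb of exon over both strains on a log y axis; colour gives the call between strains, and eIF4B, listed at 0, is not drawn. eEF1alpha1, eEF2, eIF4A, eEF1gamma and eEF1beta lie at the top. The main eIF3 subunits lie within a narrow band between 5535 and 15832 per kb, and paralogs such as eIF3d2 lie near 4 per kb.

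Of the 6 elongation factors, Dahomey had more RNA of 3 and less of 1, while 2 did not pass. The share called was 66.7% of these 6 genes, beside 37.0% of all gene IDs with a mean of at least 100. The difference in share was not tested. In the authors' deposited table, eEF1alpha1, the GTPase that carries aminoacyl-tRNA to the ribosome, had a mean of 645122 and a log2 fold change of 0.35 ± 0.052 (SE; DESeq2 adjusted p = 2.12e-10), a 1.27-fold difference. Its paralog eEF1alpha2 encodes the same activity and had 0.03 ± 0.086 in the authors' deposited table (adjusted p = 0.833 by DESeq2), from a level per kb 13.2 times lower. The 95% interval of eEF1alpha2 ran from -0.14 to 0.20 and that of eEF1alpha1 from 0.25 to 0.45; the difference between the paralogs was not tested.

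The translocase gene eEF2 had a mean of 365534 and a log2 fold change of 0.25 ± 0.059 in the authors' deposited table (adjusted p = 0.000146 by DESeq2). The subunits of the eEF1B complex, which reloads eEF1alpha with GTP, differed in opposite directions where they passed. eEF1gamma, its structural subunit, was higher in Dahomey, at 0.23 ± 0.039 (adjusted p = 2.39e-08 by DESeq2) in the authors' deposited table. eEF1beta, an exchange subunit, was lower, at -0.23 ± 0.062 (adjusted p = 0.00138 by DESeq2) in the authors' deposited table. The other exchange subunit, eEF1delta, did not pass, with -0.04 ± 0.061 in the authors' deposited table. The 95% intervals of eEF1gamma (0.16 to 0.31) and eEF1beta (-0.35 to -0.11) lay on opposite sides of 0.

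**Figure D2:**
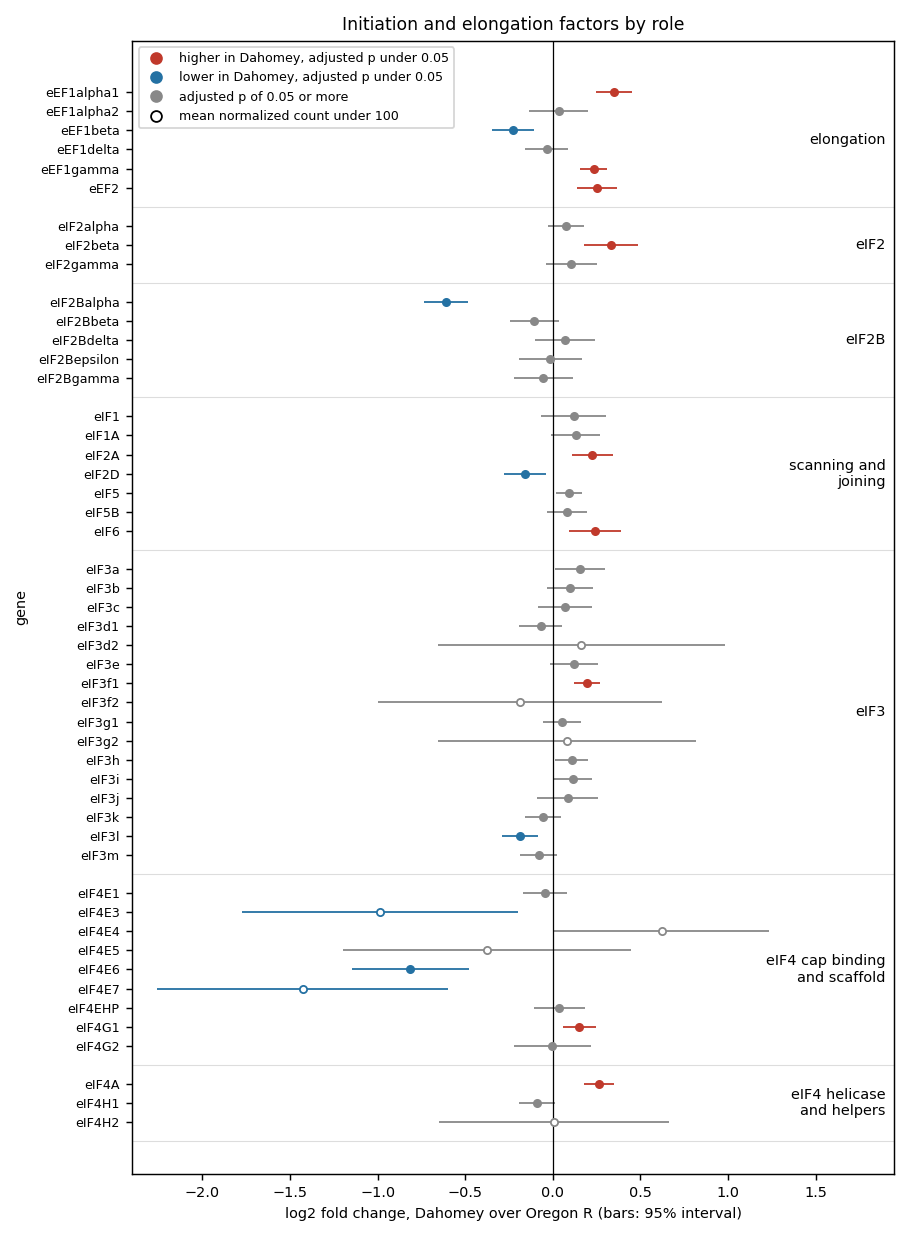
Log2 fold change of Dahomey over Oregon R on the x axis for the 49 members with a fold change, grouped by role on the y axis; bars are 95% intervals (1.96 SE), and open points are members with a mean under 100. Points stay close to 0 in most roles, with eIF2Balpha and the minor eIF4E paralogs eIF4E3, eIF4E6 and eIF4E7 farthest to the left.

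All 3 subunit genes of eIF2 had positive fold changes, of which that of eIF2beta alone passed. In the authors' deposited table, eIF2beta, which contacts eIF5 and eIF2B, had a mean of 12858 and a log2 fold change of 0.33 ± 0.080 (adjusted p = 0.000216 by DESeq2). eIF2alpha, the target of the stress kinases, had 0.07 ± 0.053 and did not pass (adjusted p = 0.331 by DESeq2 in the authors' deposited table). eIF2gamma, which binds GTP and the initiator tRNA, had 0.11 ± 0.074 in the authors' deposited table. That row holds the same values as the row of Su(var)3-9, a histone methyltransferase gene that shares its first exons with eIF2gamma, so its value cannot be given to either gene alone.

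Of the 5 subunit genes of eIF2B, eIF2Balpha was lower in Dahomey and the other 4 did not pass. eIF2Balpha, a regulatory subunit, had a mean of 3135 and a log2 fold change of -0.61 ± 0.063 in the authors' deposited table (adjusted p = 2.08e-20 by DESeq2). It was 1.53-fold higher in Oregon R, and its p was the smallest of all members. The other regulatory subunits had -0.11 ± 0.071 (eIF2Bbeta) and 0.07 ± 0.088 (eIF2Bdelta) in the authors' deposited table. The catalytic subunit eIF2Bepsilon had -0.01 ± 0.092 and its partner eIF2Bgamma had -0.05 ± 0.085 in the authors' deposited table. The interval of eIF2Balpha, from -0.73 to -0.49, did not reach that of any other eIF2B subunit, of which the lowest bound was -0.25. Per kb of exon the 5 genes lay between 1176 and 3119, with eIF2Balpha at the top.

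Among the factors of scanning, start codon choice and subunit joining, 2 of 7 were higher in Dahomey and 1 was lower. That is 42.9% called, beside 37.0% of all gene IDs with a mean of at least 100, a difference that was not tested. eIF6, which keeps the large ribosomal subunit from joining too early, had a log2 fold change of 0.24 ± 0.076 in the authors' deposited table (adjusted p = 0.00652 by DESeq2). eIF2A and eIF2D are both known for bringing initiator tRNA to the ribosome without eIF2, and they differed in opposite directions. In the authors' deposited table eIF2A had 0.23 ± 0.059 (adjusted p = 0.000719 by DESeq2). For eIF2D the authors' deposited table gave -0.16 ± 0.062 (adjusted p = 0.0345 by DESeq2). The core factors did not pass: the authors' deposited table had eIF1 at 0.12 ± 0.094, eIF1A at 0.13 ± 0.071 and eIF5B at 0.08 ± 0.058. eIF5, which makes eIF2 hydrolyse its GTP, fell just outside the threshold, with 0.09 ± 0.039 in the authors' deposited table (adjusted p = 0.0581 by DESeq2). It passed (adjusted p = 0.0407, from the deposited SE) when fold changes were re-centred on the median of all genes.

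The eIF3 complex, the largest of the initiation factors, was close to even between the strains. Of its 16 genes 14 did not pass, leaving 1 higher and 1 lower in Dahomey. That is 12.5% called, beside 29.6% of all gene IDs with a p-value. At an unadjusted p under 0.05 by DESeq2, 4 were higher and 1 lower, beside 2428 and 2416 of all 13185 gene IDs. The 13 genes with a mean of at least 100 had a median log2 fold change of 0.08, with 9 above 0. Their levels per kb spanned 2.86-fold, from 5535 for eIF3a to 15832 for eIF3i. By adjusted p, eIF3f1 was the higher one, at 0.20 ± 0.038 in the authors' deposited table (adjusted p = 2.46e-06 by DESeq2). eIF3l was the lower one, at -0.19 ± 0.053 in the authors' deposited table (adjusted p = 0.00226 by DESeq2). The large scaffold subunits had 0.15 ± 0.073 (eIF3a), 0.10 ± 0.067 (eIF3b) and 0.07 ± 0.078 (eIF3c) in the authors' deposited table, with adjusted p of 0.102, 0.291 and 0.606 by DESeq2. The paralogs eIF3d2, eIF3f2 and eIF3g2 had means of 9.15, 5.41 and 2.86 counts, and did not pass, with SE of 0.37 to 0.42 in the authors' deposited table; their intervals allow differences as large as -0.998 and 0.984 on the log2 scale.

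In the eIF4 group, the helicase and the main scaffold were higher in Dahomey, and the minor cap-binding paralogs that passed were lower. eIF4A had a mean of 170611 and a log2 fold change of 0.26 ± 0.043 in the authors' deposited table (adjusted p = 8.17e-09 by DESeq2). eIF4G1, on the fourth chromosome, had 0.15 ± 0.049 in the authors' deposited table (adjusted p = 0.00831 by DESeq2). eIF4G2, a paralog known in flies for its role in sperm development, had -0.003 ± 0.11 in the authors' deposited table, at a level per kb 11.4 times below that of the main scaffold gene. The helicase cofactor eIF4H1 had -0.09 ± 0.052 and did not pass in the authors' deposited table.

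eIF4E1, the main cap-binding protein, did not pass, with a mean of 26235 and a log2 fold change of -0.04 ± 0.063 in the authors' deposited table (adjusted p = 0.693 by DESeq2). Its interval ran from -0.17 to 0.08. By comparison, eIF4EHP, a cap-binding repressor that does not engage eIF4G, had 0.04 ± 0.074 in the authors' deposited table. Among the 5 minor paralogs, 3 were lower in Dahomey, beside 14.8% of all gene IDs with a p-value. Of the 9 cap-binding and scaffold genes, 44.4% were called in either direction, beside 29.6% of all gene IDs with a p-value. These differences in share were not tested. eIF4E6 had a mean of 250.2 and a log2 fold change of -0.81 ± 0.17 in the authors' deposited table (adjusted p = 1.55e-05 by DESeq2); its level per kb was 32.2 times below that of eIF4E1. eIF4E7 had the lowest fold change of all members, -1.43 ± 0.42 from a mean of 7.38 counts, in the authors' deposited table (adjusted p = 0.00365 by DESeq2). eIF4E3, known in flies for a role in spermatogenesis, lay just inside the threshold, at -0.99 ± 0.40 from a mean of 6.30 counts (adjusted p = 0.0484 by DESeq2 in the authors' deposited table). In the other direction eIF4E4 had 0.62 ± 0.31 in the authors' deposited table and did not pass (adjusted p = 0.130 by DESeq2). The fold change of eIF4E5 was below 0, at -0.38 ± 0.42, and did not pass either. The values of eIF4E3 and eIF4E7 rest on few reads in females. In the authors' deposited table the testis markers aly, dj and Mst98Ca had means of 1.97, 6.46 and 5.26 counts and did not pass. A further testis marker, can, was higher in Dahomey at 2.07 ± 0.29 there. The testis list also holds bam, listed for ovary and germline too, which had a mean of 295 counts and did not pass (-0.21 ± 0.28).

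**Figure D3:**
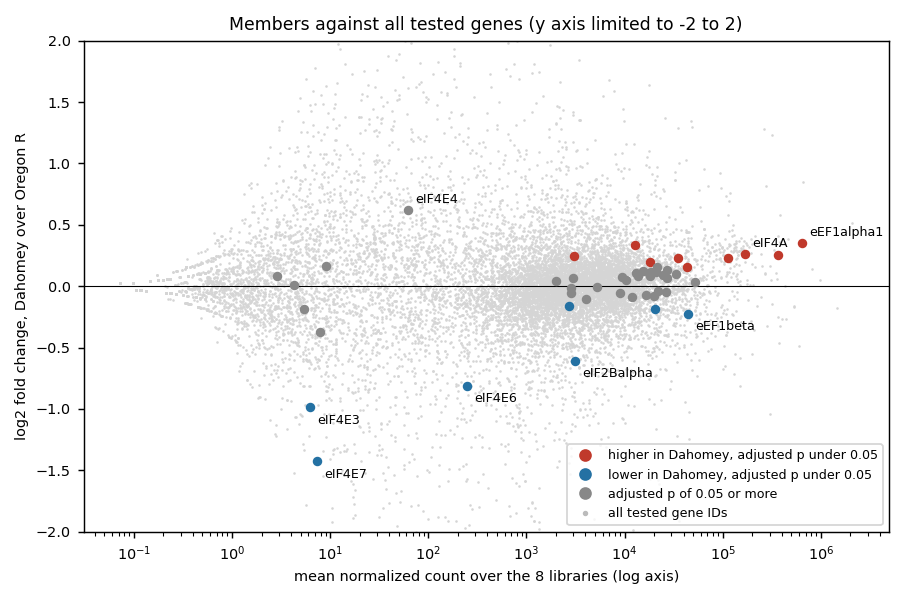
Mean normalized count over the 8 libraries on a log x axis against log2 fold change of Dahomey over Oregon R on the y axis, limited to -2 to 2; grey dots are all tested gene IDs and coloured points are the 49 members. Most members lie at means over 1000 and close to 0, eEF1alpha1 is farthest to the right at 0.35, and eIF4E3 and eIF4E7 lie at means under 10.

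For the factors that did not pass, the precision was high wherever the level was. All 27 members with a mean of at least 100 that did not pass had 95% intervals inside a 1.25-fold difference either way; their lowest bound was -0.25 and their highest 0.30 on the log2 scale. The SE of the 41 members with such a mean ran from 0.038 to 0.17 in the authors' deposited table. It ran from 0.31 to 0.42 for the 8 with lower means. The deposited SE never exceeded 0.42 in the whole table, with a median of 0.17 where the mean was under 1 and of 0.41 where it was 3 to 10. Fold changes shrunken toward 0 have this shape, and those of the members with low counts may be understated.

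The other genes of translation give the setting of these values. Of the 13 regulators and partners of initiation with a p-value, Dahomey was higher for 2 and lower for 2. That is 30.8% called, beside 29.6% of all gene IDs with a p-value, so the count says nothing particular to them. Of the genes called, the kinases of eIF2alpha were on opposite sides. PEK, the kinase activated by stress in the endoplasmic reticulum, was higher in Dahomey, with a log2 fold change of 1.00 ± 0.076 in the authors' deposited table (adjusted p = 5.73e-37 by DESeq2). Gcn2, the kinase activated by amino acid shortage, was lower, at -0.35 ± 0.096 in the authors' deposited table (adjusted p = 0.0015 by DESeq2). MCTS1 acts with DENR in reinitiation, and the pair is related in sequence to eIF2D; MCTS1 was lower, at -0.46 ± 0.052, and DENR had -0.02 ± 0.075, in the authors' deposited table. mxt, a fly scaffold that binds eIF4E1, was higher, at 0.25 ± 0.068 in the authors' deposited table. Thor, the inhibitor 4E-BP of eIF4E, had a fold change of -0.12 ± 0.17 and no p-value in the authors' deposited table. CG7483, which RefSeq lists as eIF4AIII among its older names, falls outside the symbol rule; it had -0.14 ± 0.066 in the authors' deposited table (adjusted p = 0.104 by DESeq2).

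Of 6 genes for termination, recycling and poly(A) binding, 3 were higher in Dahomey and 0 lower by DESeq2; at an unadjusted p under 0.05, 5 were higher and 0 lower, beside 2428 higher and 2416 lower of all 13185 gene IDs and 14 higher and 7 lower of the 49 factors. They were the release factor gene eRF3 at 0.24 ± 0.075, the poly(A)-binding protein gene pAbp at 0.21 ± 0.079 and the ribosome rescue gene HBS1 at 0.18 ± 0.062 in the authors' deposited table. Cytosolic aminoacyl-tRNA synthetases, which charge tRNAs, gave 5 higher and 1 lower of 20, with AsnRS at 0.46 ± 0.080 and beta-PheRS at -0.28 ± 0.10 in the authors' deposited table. Cytosolic ribosomal proteins were called more often: 35 of 50 large-subunit genes and 29 of 35 small-subunit genes were higher in Dahomey, with medians of 0.28 and 0.29, against 0.07 for the factors. Lower in Dahomey were 1 large-subunit gene, RpL7-like, and 0 small-subunit genes. Over all gene IDs with a p-value, 29.6% were called, with 14.8% higher and 14.8% lower. Of gene IDs with a mean of at least 100, 18.3% were higher. The median mean of that set was 2895, beside 114248 and 128592 for the large-subunit and small-subunit genes. The difference between these lists was not tested. For mitochondrial ribosomal proteins the counts were 5 higher and 16 lower of 71, with a median of -0.06.

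**Figure D4:**
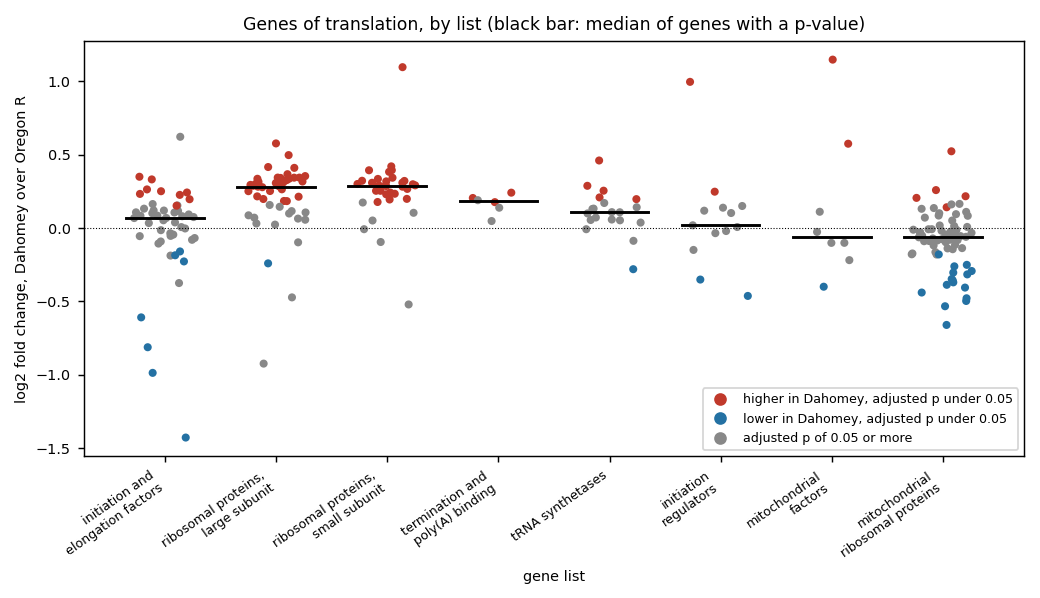
Log2 fold change of Dahomey over Oregon R on the y axis for each gene with a p-value, by gene list on the x axis; black bars are list medians and colours give the call. The factor genes spread on both sides of 0 around a median of 0.07, while most cytosolic ribosomal protein genes lie above 0, around 0.28 and 0.29.

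Markers of the tissues in the samples had counts. Those of flight muscle and midgut went both ways. All 5 photoreceptor markers had fold changes below 0. Of these, Arr2 (-0.002 ± 0.084), ninaC (-0.15 ± 0.083) and ninaE (-0.18 ± 0.11) did not pass in the authors' deposited table. The 3 fat-body markers with a p-value had fold changes above 0. Of the 6 fat-body markers, apolpp and Yp1 were higher in Dahomey (0.39 ± 0.11 and 0.52 ± 0.16 in the authors' deposited table), Fbp1 did not pass, and 3 had no p-value: Lsp2 at -1.91 ± 0.39, Yp2 at 0.38 ± 0.19 and Yp3 at -0.16 ± 0.15. Of the 5 flight-muscle markers, up and Mhc were higher (0.26 ± 0.048 and 0.16 ± 0.061), fln was lower (-0.50 ± 0.083), wupA did not pass and Act88F had 1.25 ± 0.16 without a p-value, in the authors' deposited table. For photoreceptors 2 of 5 markers, trp and inaD, were lower and 0 higher, and for neurons Syt1 alone of 4 with a p-value was lower, in the authors' DESeq2 test; at an unadjusted p under 0.05 the counts were the same. The midgut markers Jon99Ci and betaTry had -6.47 ± 0.12 and 0.81 ± 0.066, and LysB, Jon65Aiv and Mal-A1 had -8.97 ± 0.17, 0.68 ± 0.31 and -0.02 ± 0.28 without a p-value, in the authors' deposited table. Ovary and germline markers also had counts, with means from 47.3 for Vm32E to 11153 for osk, though abdomens were left out. These means pool the libraries, so whether the RNA was in every library is not known. Of the 7 matched genes, 6 had no p-value and bam did not pass (by DESeq2, 0 passed, and 0 did at an unadjusted p under 0.05). The part of these cell types in the values of the factors was not tested. In tissue of mixed cells, fewer cells of a type and less RNA per cell cannot be told apart.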

How the data were processed

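Polyadenylated RNA of 4 Dahomey and 4 Oregon R libraries was compared. TopHat2 2.0.7, DESeq2 and build BDGP5 are named in the submitters' processing notes; the counting program, strand setting and gene models were not given in the sources used here. Per the labels' protocols, the library kit was TruSeq RNA v2.

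Per the file headers, the authors deposited a log2 fold change with its SE, its p-value and adjusted p-value, and a mean. The deposited mean was taken as a signal in normalized counts, from its column name and values. Each deposited p-value equalled a 2-sided Wald p within 4.1e-15. The main test was the authors' adjusted p under 0.05 (DESeq2). With no values per library, repeats of a library, depth and batches could not be checked. The labels do not say that libraries came from separate cultures, so p-values reflect the spread of these libraries alone, which may be technical.

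Of 14944 rows, 1 per gene ID was kept, by highest mean; no factor gene stood on several rows. Symbols matched 14367 of 14701 IDs. The 915 IDs with a fold change and no p-value stayed without a call. Intervals are the fold change ± 1.96 SE. Alternatives are given in the closing section. Every member that passed was named, members that did not pass were named by role, and of other lists genes that passed, up to 3 in each direction by smallest p in the longer lists. Members and lists were chosen with earlier results of these data known. Re-centring was tested on simulated data. A planned motif search was not run, and no sequence is shown. Python 3.11.15, numpy 2.4.6, pandas 2.3.3, scipy 1.17.1 and matplotlib 3.10.9 were used.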

Additional observations from a re-analysis of the deposited data

How the results depend on the processing

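No paired analysis was possible because the deposited table has no columns of single libraries, so neither the replicate block nor leaving out each library could be run. Requiring an absolute log2 fold change of at least 0.25 beside the adjusted p reduced the members higher in Dahomey from 9 to 4 and those lower from 7 to 4. Both counts stayed within 1.5 times with an adjusted p under 0.01, Benjamini-Hochberg adjustment over 1 row per gene ID, a mean of at least 100, the row of lowest mean, eIF2gamma left out, or fold changes re-centred on the median of all genes (-0.006). Under re-centring, eIF5 alone of 49 members changed its call. Low counts limit the 8 members with means under 100.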

Other observations

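Exons of 19 factor genes overlap those of another gene in the BDGP6 annotation, and reads from such stretches may not be told apart. Strand cannot separate genes on the same strand, and for opposite strands it is not given whether counting used strand. eIF2beta shares 58 bp with ver on the other strand, and ver was higher in Dahomey as well, at 0.78 ± 0.13 from a mean of 484.2 in the authors' deposited table. eIF2Balpha shares 6 bp with CG42557 and CG42558 on the other strand, whose shared values were lower in Dahomey like eIF2Balpha itself, at -0.39 ± 0.079 in the authors' deposited table. eIF2A shares 83 bp with CG32448, which went the opposite way, at -0.51 ± 0.097 in the authors' deposited table. The exons of eIF5 overlap CG46312 over 80.8% of their length, the one case above 50%. The current gene ID of CG46312 is not on a row of the authors' deposited table, so it has no values there. The part of these overlaps in the values was not tested. These neighbours were chosen after their values were seen.

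Mitochondria have their own translation factors, and 8 of their genes had a p-value: Dahomey was higher for 2 and lower for 1. That is 37.5% called, beside 29.6% of all gene IDs with a p-value and 37.0% of those with a mean of at least 100. The count thus says nothing particular to these genes. mRRF1, for the factor that recycles mitochondrial ribosomes, had a log2 fold change of 1.15 ± 0.084 in the authors' deposited table (adjusted p = 1.22e-40 by DESeq2), larger than that of any cytosolic factor gene that was higher. mIF2, an initiation factor, had 0.58 ± 0.071, and mEFTu2, an elongation factor, had -0.40 ± 0.061, in the authors' deposited table.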
